A study of Mus musculus with 6 samples.

Results

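The genes described here encode secreted antagonists of Wnt signalling, namely the secreted Frizzled-related proteins Sfrp1, Sfrp2, Sfrp4, Sfrp5 and Frzb, the Dickkopf proteins Dkk2 and Dkk3, and Wnt inhibitory factor, Wif1. They were chosen by name, and every probe set annotated with exactly 1 of these symbols was taken, which gave 15 probe sets for the 8 genes out of 45037 probe sets tested and 18193 genes with a symbol of their own. Expression had been measured on 6 Affymetrix Mouse Genome arrays of organoids of the mouse mammary gland, which are pieces of epithelium recovered from digested tissue and which still hold other cell types, with 1 mouse per array. The arrays KO5, KO6 and KO7 came from 3 KO mice, positive for BK5-cre on a WWOX flox/flox genotype, and the arrays WT1, WT2 and WT3 from 3 WT mice, negative for BK5-cre on that genotype. All were 8 weeks old and of a mixed background (129/J; C57BL/6). Both groups carry the floxed allele. The BK5 promoter is that of bovine Krt5, which the paper describes as active before birth in epithelial precursor cells. Krt5 is strongly expressed in basal cells of several epithelia, skin among them. No array came from a mouse with Cre and intact Wwox, so that effects of Cre and of Wwox deletion cannot be told apart.

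Wnt proteins signal through Frizzled receptors, together with the co-receptors Lrp5 and Lrp6 in the canonical branch, which stabilises β-catenin, or with Ror and Ryk receptors in the non-canonical branches. Secreted Frizzled-related proteins share a cysteine-rich domain with the Frizzled receptors and bind Wnt ligands outside the cell, as does Wif1 through a different domain. Dickkopf proteins such as Dkk2 act instead on Lrp5 and Lrp6, while Dkk3 is a divergent member of the family. In human breast tumours SFRP1 and WIF1 are known to be silenced by promoter methylation.

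None of the antagonists passed the limits of the study between KO and WT organoids, which were 0.01 for the p before adjustment and 2-fold for the change. By limma 0 of the 15 probe sets were called, against 1.99% of all probe sets tested (1.69% higher and 0.3% lower in KO), and 0 were under 0.05 before adjustment, against 19.3% of all (9.54% higher and 9.74% lower in KO). No member changed by 2-fold or more, which 2.8% of all probe sets did. KO and WT arrays overlapped for each of the 15, while 24.3% of all probe sets had no overlap. The lowest adjusted p (Benjamini and Hochberg, over all probe sets) was 0.267, whereas 0.222% of all probe sets were under 0.05. On the brightest probe set of each gene, meaning the one of highest mean level, 4 antagonists were higher and 4 lower in KO, with a median log2 change of 0.03 against -0.06 over all genes, of which 61.2% were lower. A p above the limit does not show that expression was equal, so the 95% intervals of the changes are given below. For 13 of the 15 probe sets the interval lay within a 2-fold change in either direction, and for 7 it lay within 1.5-fold. The exceptions at 2-fold were Sfrp4 and the brighter Dkk3 probe set.

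**Figure D1:**
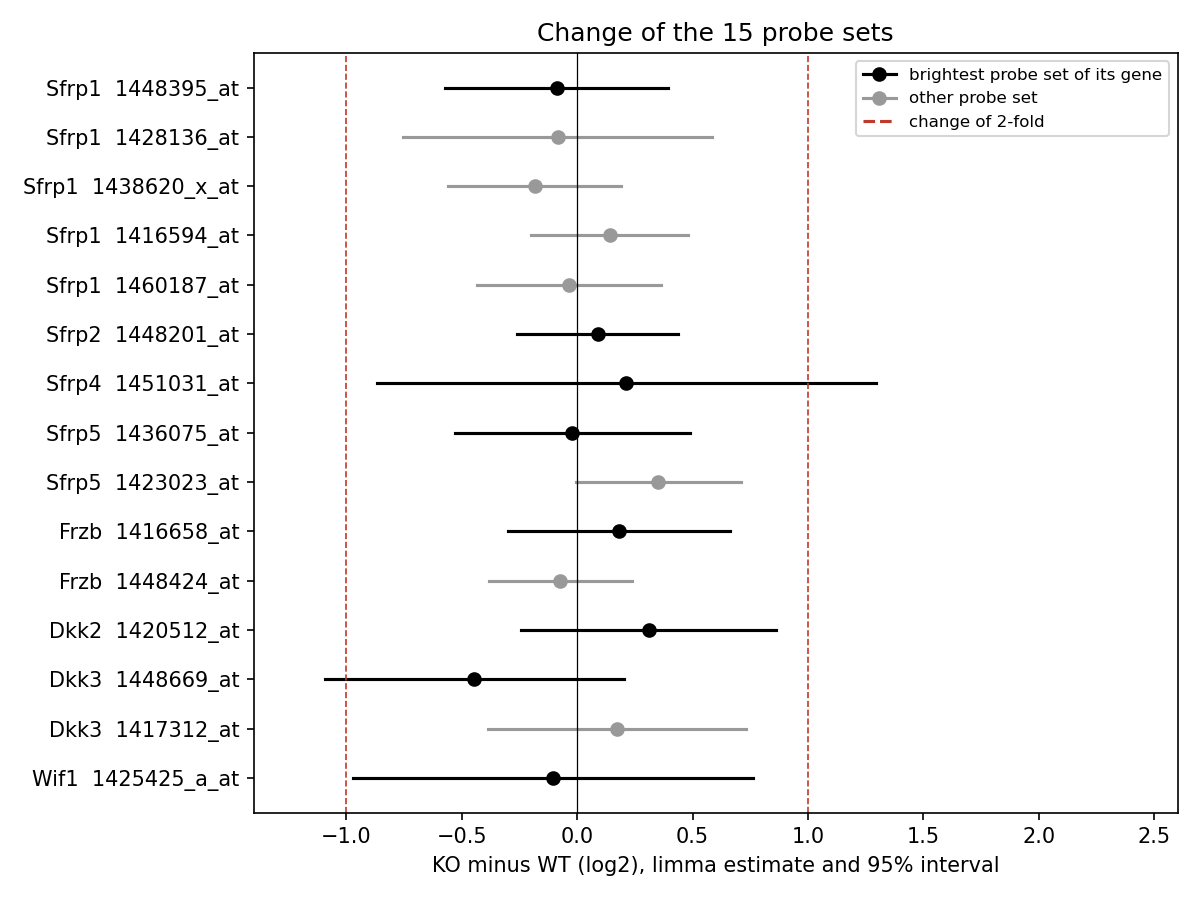
KO minus WT change (log2) of the 15 probe sets, with points for the limma estimate and lines for the 95% interval, black for the brightest probe set of a gene and grey for the others. The lines for Sfrp4, which reached 1.29, and for the brighter Dkk3 probe set, which reached -1.09, cross the dashed lines of a 2-fold change.

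The arrays themselves were checked on Wwox and on epithelial markers. The brightest Wwox probe set was at 6.23, 5.87 and 5.96 in KO5, KO6 and KO7, against 7.77, 7.63 and 7.72 in WT1, WT2 and WT3, which by limma is a change of -1.69 with a standard error of 0.13 and an adjusted p of 0.0228. The luminal keratin gene Krt8 ranged between 14.60 and 14.71 in KO and between 14.40 and 14.59 in WT, and the basal keratin gene Krt14 between 10.37 and 10.68 in KO and between 10.22 and 10.62 in WT. RNA quality was read from control transcripts, and for Gapdh the 3' signal exceeded the 5' signal by 0.47 ± 0.08 (SD, n = 3) on the log2 scale in KO organoids, against 1.72 ± 0.73 (SD, n = 3) in WT organoids (exact permutation test, two-sided, p = 0.1, the smallest that 3 against 3 allow). A larger excess means less signal from the 5' end, which is what degraded RNA gives. Every WT array exceeded every KO array in this excess, for Gapdh and for β-actin. Genotype and RNA quality therefore cannot be told apart on these arrays. All values below are the deposited log2 values unless another scale is named. Levels of different probe sets are compared to pick the brightest, to call some dim and to take gaps within a gene. They are also summed over a list, but are not read as relative amounts of RNA of different genes.

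Among the Frizzled-related genes, Sfrp4 (1451031_at) had the widest spread between mice. It was at 9.08 in KO5, 9.39 in KO6 and 7.97 in KO7, against 7.77 in WT1, 8.77 in WT2 and 9.26 in WT3. Each group held 1 low array, KO7 and WT1, and the other 4 arrays lay between 8.77 and 9.39. The mean was 8.81 ± 0.75 (SD, n = 3) for KO, against 8.60 ± 0.76 (SD, n = 3) for WT. By limma the change was 0.21 (standard error 0.46, 95% interval -0.87 to 1.29, adjusted p = 0.846). The spread within groups exceeded that of 98.9% of all probe sets. The change was 0.64 without KO7, 0.54 without WT3, 0.08 without KO5, -0.08 without KO6, -0.20 without WT1 and 1.36 once the mean 3' excess of the Gapdh and β-actin controls was added to the model as a covariate (termed the RNA quality covariate below). Sfrp4 was called in none of these. Since the covariate separates the groups fully, changes fitted with it are imprecise, with a standard error of 0.73 for Sfrp4. They do not tell genotype from RNA quality, here or below.

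Sfrp2 (1448201_at) had the narrowest span over the 6 arrays among the 8 antagonists. Its probe set was at 7.45, 7.22 and 7.45 in KO5, KO6 and KO7, against 7.02, 7.49 and 7.33 in WT1, WT2 and WT3. The change was 0.09 (standard error 0.15, 95% interval -0.26 to 0.44, adjusted p = 0.797 by limma), an interval within 1.5-fold in either direction. It was 0.50 with the RNA quality covariate (standard error 0.22, unadjusted p = 0.0591 by limma), -0.04 without WT1 and 0.19 without WT2, so that its size and sign depended on these settings. In bulk RNA a smaller number of cells of one type and less RNA per cell cannot be told apart, for this gene as for the others.

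Sfrp1, which is known in mouse mammary gland as an inhibitor of premature alveolar growth, has 5 probe sets on the array. The brightest (1448395_at) was at 7.72, 7.39 and 6.94 in KO5, KO6 and KO7, against 7.26, 7.45 and 7.62 in WT1, WT2 and WT3, so that the KO arrays included both the highest and the lowest value. The change was -0.09 (standard error 0.21, 95% interval -0.57 to 0.39, adjusted p = 0.857 by limma). It was -0.27 without KO5, -0.18 without WT1, 0.12 without KO7 and 0.15 with the RNA quality covariate, and it was called in none of these. The other Sfrp1 probe sets changed by -0.08, -0.18, 0.14 and -0.04, with adjusted p between 0.58 and 0.935. The next brightest followed the brightest across the arrays (Pearson's r = 0.832 over 6 arrays, as a description), with KO7 again lowest at 6.26. The dimmest averaged 3.43 ± 0.26 (SD, n = 3) for KO, against 3.47 ± 0.20 (SD, n = 3) for WT, under the lower quartile of all probe set means, which was 4.03, and was weakly related to the brightest (r = 0.106). The probe set with the change of -0.18 carries the suffix that Affymetrix gave to probes which can also match other transcripts.

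Sfrp5, known in mouse fat as an antagonist of Wnt5a, held the lowest p of the antagonists, on the dimmer of its probe sets. That probe set (1423023_at) was at 6.61, 6.90 and 6.43 in KO5, KO6 and KO7, against 6.47, 6.19 and 6.22 in WT1, WT2 and WT3. KO7 lay just below WT1, and the other KO arrays above every WT array. The change was 0.35 (standard error 0.15, 95% interval -0.01 to 0.71, unadjusted p = 0.053, adjusted p = 0.267 by limma). The brighter Sfrp5 probe set (1436075_at) was at 7.62, 7.54 and 6.80 in KO5, KO6 and KO7, against 7.42, 7.35 and 7.25 in WT1, WT2 and WT3, with a change of -0.02 (standard error 0.22, 95% interval -0.53 to 0.49). KO7 was the lowest array on it and the remaining KO arrays the highest. On the dimmer probe set the change was 0.46 without KO7 and 0.11 with the RNA quality covariate, and it was not called in either setting.

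Frzb was dim on both of its probe sets. The brighter one (1416658_at) was at 4.56, 4.46 and 3.79 in KO5, KO6 and KO7, against 4.18, 4.10 and 3.99 in WT1, WT2 and WT3. The order of the arrays was that of the brighter Sfrp5 probe set, with KO7 lowest and the other KO arrays highest. The change was 0.18 (standard error 0.21, 95% interval -0.30 to 0.66, adjusted p = 0.684 by limma) and was 0.42 without KO7 (adjusted p = 0.237), 0.04 without KO5, 0.09 without KO6 and 0.09 with the RNA quality covariate. The dimmer Frzb probe set (1448424_at) changed by -0.07 (95% interval -0.38 to 0.24).

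**Figure D2:**
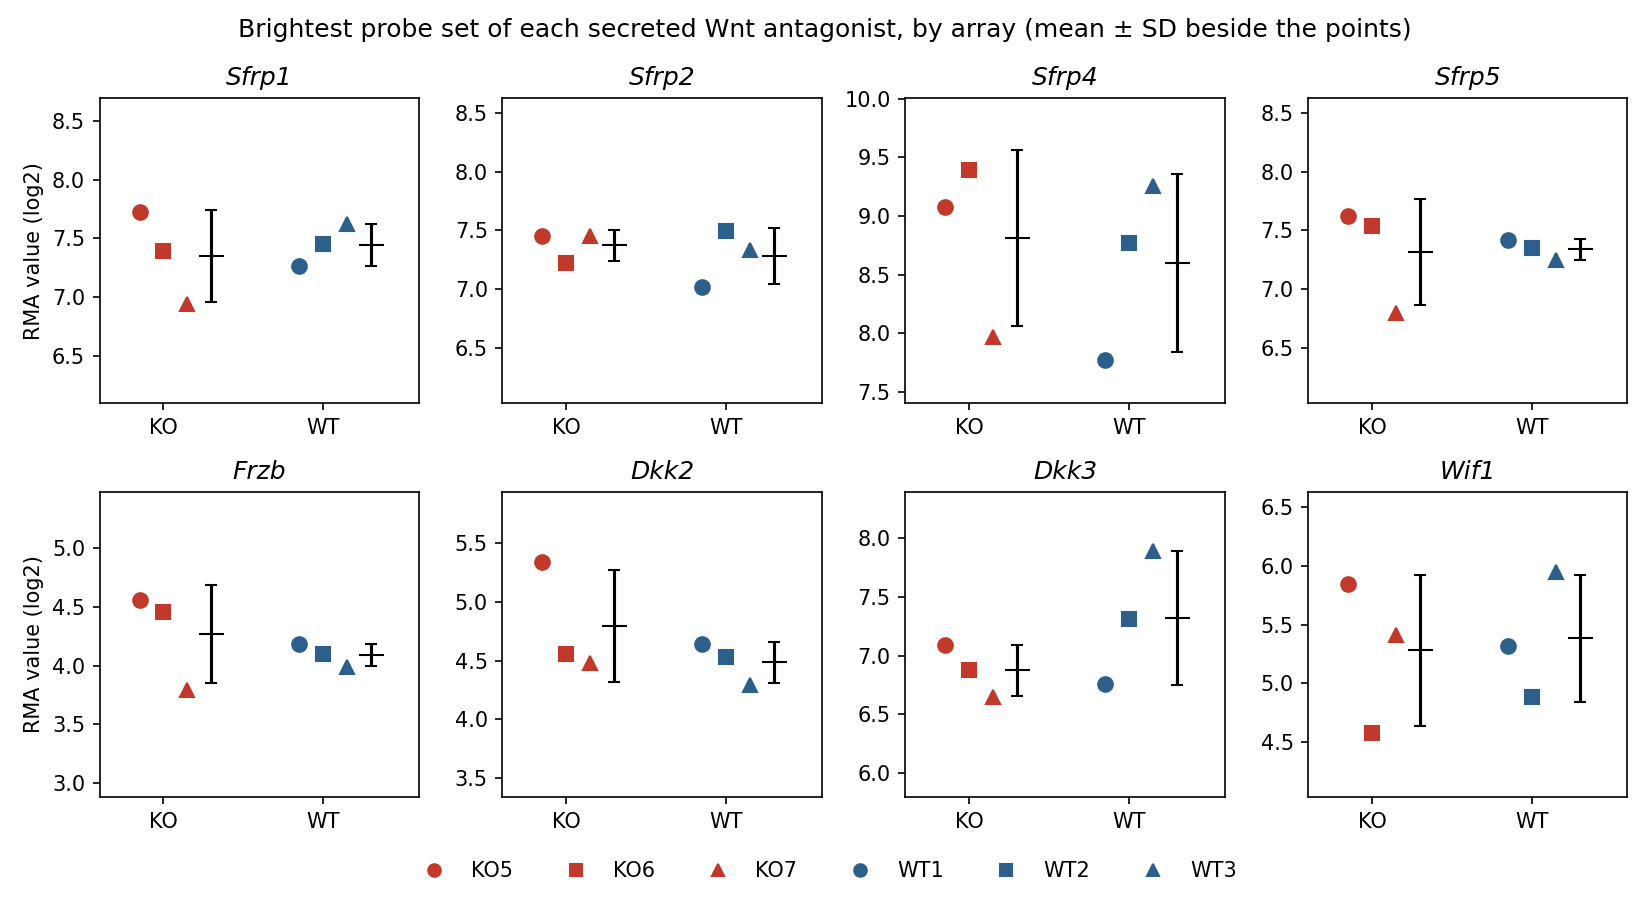
RMA values (log2) of the brightest probe set of each of the 8 genes, on the same span of the axis in each panel; points are arrays, KO left of WT, and the bars beside them the mean and SD of 3 mice. Sfrp4, Wif1 and Dkk3 spread most, and Sfrp2 least, with a span of 0.47 over the 6 arrays.

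Sfrp5 and Frzb were the most alike of the 28 pairs of antagonists on their brightest probe sets, with r = 0.924 over the 6 arrays, a description over arrays that share the same low one. This holds for those probe sets only, since the brighter and dimmer Frzb probe sets gave r = -0.268, and those of Sfrp5 gave r = 0.434. The promoters of Sfrp5 and Frzb, 250 bases before to 50 after the start of the gene, are shown because their brightest probe sets varied together. The CG dinucleotides are in capitals. The sequences are from RefSeq (GRCm38.p6), Sfrp5 at chr19:42202203-42202502 and Frzb at chr2:80447347-80447646, both on the minus strand.
Sfrp5: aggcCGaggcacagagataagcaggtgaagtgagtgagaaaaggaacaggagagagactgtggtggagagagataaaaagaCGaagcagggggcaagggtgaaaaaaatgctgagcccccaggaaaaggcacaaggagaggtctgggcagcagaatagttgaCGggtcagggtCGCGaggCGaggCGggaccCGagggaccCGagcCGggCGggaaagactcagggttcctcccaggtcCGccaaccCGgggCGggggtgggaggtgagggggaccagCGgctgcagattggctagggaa
Frzb: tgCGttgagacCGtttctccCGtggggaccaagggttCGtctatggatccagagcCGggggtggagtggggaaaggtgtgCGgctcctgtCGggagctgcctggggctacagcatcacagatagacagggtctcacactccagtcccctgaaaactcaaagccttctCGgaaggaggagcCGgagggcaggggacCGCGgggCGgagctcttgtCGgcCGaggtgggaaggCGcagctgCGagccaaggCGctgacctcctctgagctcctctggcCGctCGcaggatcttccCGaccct
Of the 8 genes 5 matched the promoter table. They held 22 CG dinucleotides in Sfrp2, 15 in Sfrp5, 20 in Frzb, 11 in Dkk2 and 25 in Wif1, against a median of 7 over all 32851 promoters of that length, and all 5 had a GC content above the median of 52.7%. The letters CTTTGA, the core recognised by the TCF factors of the canonical pathway, were searched on both strands and were found once in Frzb and in none of the other 4, against 16.0% of all promoters with at least 1 match. The letters TATAAA, also on both strands, were found in Dkk2 and Wif1 and in 13.6% of all promoters. Such matches describe the sequence only.

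Of the Dickkopf genes, Dkk2 (1420512_at) was at 5.34, 4.56 and 4.48 in KO5, KO6 and KO7, against 4.64, 4.53 and 4.29 in WT1, WT2 and WT3. KO5 stood above the remaining arrays, which lay within a narrow band. This probe set was dim, with a mean of 4.64 over the arrays, under the median of all probe set means, 5.45. The change was 0.31 (standard error 0.24, 95% interval -0.24 to 0.86, adjusted p = 0.524 by limma), and it was 0.03 without KO5, 0.46 without KO7 and 0.13 with the RNA quality covariate.

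Dkk3 gave opposite signs on its probe sets. The brighter one (1448669_at) was at 7.09, 6.88 and 6.65 in KO5, KO6 and KO7, against 6.76, 7.31 and 7.89 in WT1, WT2 and WT3. WT1 lay among the KO arrays, and the other WT arrays above all of them. The change of -0.45 (standard error 0.28, 95% interval -1.09 to 0.20, adjusted p = 0.431 by limma) had the largest size among the 15 probe sets. It was -0.73 without WT1 (unadjusted p = 0.012, adjusted p = 0.0906), -0.16 without WT3 and 0.25 with the RNA quality covariate. The dimmer Dkk3 probe set (1417312_at) was at 6.85, 6.68 and 6.63 in KO5, KO6 and KO7, against 6.30, 6.21 and 7.12 in WT1, WT2 and WT3, with a change of 0.17 (95% interval -0.39 to 0.73), which was 0.46 without WT3 (adjusted p = 0.167).

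The gap between the Dkk3 probe sets, brighter minus dimmer, was 0.24, 0.21 and 0.02 in KO5, KO6 and KO7, against 0.45, 1.10 and 0.77 in WT1, WT2 and WT3. Every KO array lay below every WT array (exact permutation test, two-sided, p = 0.1, and 0.4 when adjusted over the 4 antagonists with several probe sets). Of 9010 genes with several probe sets, 28.6% had no overlap between the groups in this gap. The 3' excess of Gapdh was 0.40, 0.56 and 0.46 in KO5, KO6 and KO7, against 0.95, 2.41 and 1.79 in WT1, WT2 and WT3, and the 3 WT arrays took the same order in both measures, while among the KO arrays KO5 had the largest Dkk3 gap and the smallest Gapdh excess. The part of RNA quality in the Dkk3 gap was not tested, and where the probe sets lie along the transcript is not known here. For Sfrp1, Sfrp5 and Frzb the gap between the brightest probe set and the next overlapped between the groups, with p = 1, 0.2 and 0.5 by the same exact permutation test.

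**Figure D3:**
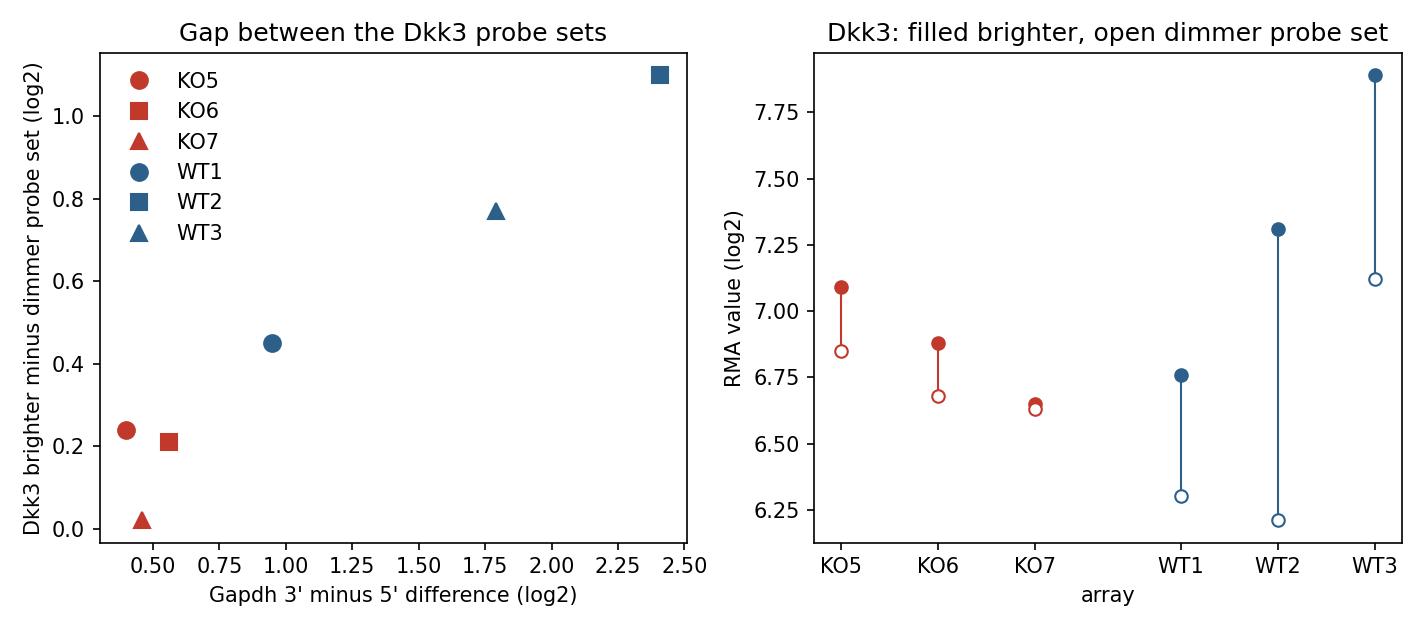
Left, the gap between the Dkk3 probe sets (log2) against the 3' excess of Gapdh, its 3' minus 5' signal (log2), with a point for each array. Right, the RMA values (log2) of the brighter (filled) and dimmer (open) Dkk3 probe set on each array, with the gap smallest in KO7, at 0.02, and widest in WT2, at 1.10.

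Wif1 (1425425_a_at) was at 5.85, 4.58 and 5.41 in KO5, KO6 and KO7, against 5.32, 4.88 and 5.95 in WT1, WT2 and WT3. The groups covered nearly the same range. The change was -0.10 (standard error 0.37, 95% interval -0.97 to 0.76, adjusted p = 0.91 by limma), with a spread within groups above that of 97.7% of all probe sets, and it was 0.24 without KO6, 0.18 without WT3, -0.36 without WT2, -0.39 without KO5 and -0.32 with the RNA quality covariate.

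For each of the 8 genes the difference between the genotype means was smaller than the range between mice of at least 1 genotype. On the brightest probe sets, KO5 was the highest array for 4 of the 8 antagonists (Sfrp1, Sfrp5, Frzb and Dkk2) and KO7 the lowest for 4 (Sfrp1, Sfrp5, Frzb and Dkk3). The median of the 8 genes, each centred on its mean over the arrays, was 0.35 in KO5, -0.04 in KO6 and -0.42 in KO7, against -0.07 in WT1, 0.04 in WT2 and 0.11 in WT3. The WT arrays therefore lay between KO5 and KO7, and KO6 lay within the range of the WT arrays. The SD was larger in KO than in WT for 5 of the 8 genes, as it was for 40.1% of all genes.

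Several of these genes are known from fibroblasts, and fibroblast markers moved across the same arrays. Of 30 such markers 29 were measured, and 24 of them were higher and 5 lower in KO, with a median log2 change of 0.31. Of all genes 61.2% were lower. Among the markers, by limma, 3 were called, all higher (Col1a1, Fbln2 and Pi16), against 0.978% of all genes on their brightest probe sets. The median of the fibroblast markers per array was 0.47, 0.46 and -0.33 in KO5, KO6 and KO7, against -0.41, -0.09 and 0.04 in WT1, WT2 and WT3, with KO7 and WT1 low, as for Sfrp4. Their summed level, on the linear scale, where the brightest probe sets weigh most, ranged between 55414 and 85183 in KO and between 49478 and 57738 in WT. Of the 4 brightest, the collagen genes Col3a1 and Col1a2 lay above WT in every KO array, with changes of 0.56 and 0.84, Dcn, the gene of decorin, overlapped, with a change of 0.31, and Postn, the gene of periostin, lay just below WT in every KO array, at -0.17. Over all probe sets 10.7% lay above WT in every KO array and 13.6% below. The part of fibroblast content in the values of the antagonists was not tested.

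Among the other cell type lists, the endothelial one held called genes. All 15 endothelial markers were higher in KO, with a median of 0.60, and by limma 3 were called (Cldn5, Flt1 and Tie1), against 0.978% of all genes, and 9 were under 0.05 before adjustment, against 19.1% of all. Their medians per array ranged between 0.06 and 0.57 in KO and between -0.56 and -0.09 in WT. All 13 measured markers of macrophages and lymphocytes were lower, against 61.2% of all genes. By limma 0 of these markers were called and 0 were under 0.05 before adjustment. Their median change was -0.48, and their medians per array overlapped between KO and WT. Basal epithelial markers had a median change of -0.02, luminal ones of 0.09, adipocyte ones of 0.11, mural cell ones of 0.29 and nerve sheath ones of 0.01, with 0 called in each of these lists.

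**Figure D4:**
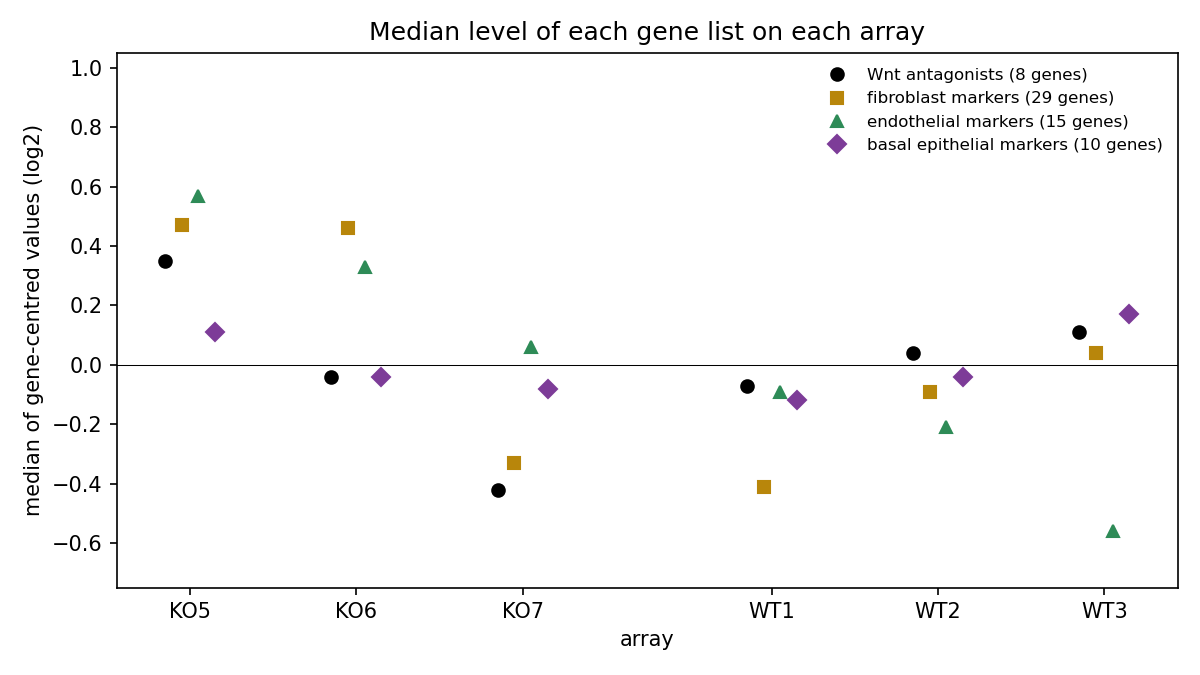
Median over the genes of each list of the values centred per gene (log2), on each array, KO left of WT. The antagonists lie at 0.35 in KO5 and -0.42 in KO7, on either side of the WT arrays, and the fibroblast markers are low in KO7 and WT1.

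The genes with the pattern most like each antagonist were looked up for those whose brightest probe set spanned at least 1 log2 unit, as Pearson's r over the 6 arrays among 18192 genes, and are given as a description. For Sfrp4 they were Msmo1, of cholesterol synthesis (r = 0.988), Lum, the gene of the matrix proteoglycan lumican (0.987), and Akr1d1 (0.985). Lum was at 11.13, 11.34 and 10.44 in KO5, KO6 and KO7, against 10.47, 10.95 and 11.37 in WT1, WT2 and WT3, and it stood among the fibroblast markers. For Dkk3 they were Srp14, Tmem35a and Ecrg4 (0.996, 0.995 and 0.995), with 126 genes above 0.95. Srp14, which encodes a protein of the signal recognition particle, was at 11.95, 11.80 and 11.68 in KO5, KO6 and KO7, against 11.67, 12.06 and 12.49 in WT1, WT2 and WT3. For Dkk2 they were Socs2, Gm364 and Rps15a-ps6 (0.98, 0.97 and 0.97), which shared the high KO5, and for Wif1 they were Immt, Ilkap and Shoc2 (0.994, 0.99 and 0.985). Gm364 and Rps15a-ps6 were on every array under the lower quartile of all probe set means, 4.03. They spanned 0.19 and 0.48 over the arrays, and Akr1d1 spanned 0.24, so that these likenesses rest on small shifts at low levels.

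Among other inhibitors of the pathway, 15 of 16 listed genes were measured. By limma 0 were called, against 0.978% of all genes. Before adjustment 1 higher and 0 lower genes were under 0.05, against 19.1% of all genes in either direction. The 1 was Igfbp4, a binding protein of insulin-like growth factors that also blocks Wnt receptors, at 12.04, 12.07 and 11.33 in KO5, KO6 and KO7, against 11.45, 11.29 and 10.95 in WT1, WT2 and WT3 (0.58, adjusted p = 0.226, and 0.36 with the RNA quality covariate). Apcdd1, a membrane inhibitor, was at 7.76, 7.50 and 7.10 in KO5, KO6 and KO7, against 7.73, 8.01 and 7.87 in WT1, WT2 and WT3 (-0.42, adjusted p = 0.263, with -0.16 under the RNA quality covariate and -0.24 without KO7). Dkk1, the best studied Dickkopf gene, was at -0.16 (adjusted p = 0.598).

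Beside the 0.978% of all genes called by limma on their brightest probe sets, 1 of the ligands and receptors that the antagonists bind or block was called. Of 19 Wnt ligands this was Wnt5a, whose brightest probe set was at 9.34, 9.54 and 9.13 in KO5, KO6 and KO7, against 8.22, 7.86 and 8.67 in WT1, WT2 and WT3 (1.08, standard error 0.22, adjusted p = 0.0697 by limma). It was not called without KO6, at 0.98, without WT2, at 0.89, with the RNA quality covariate, at 0.94, or with unmoderated variances, at 1.08. These values are for the brightest Wnt5a probe set only. The paper reports a larger fold change for Wnt5a between these groups. By semi-quantitative RT-PCR it also found Wnt5a raised in all KO samples, with variable levels among WT mice. Before adjustment Wnt10a, Wnt11 and Wnt5b were also under 0.05, all 3 lower in KO, which with Wnt5a is 4 of 19 against 19.1% of all genes, with adjusted p between 0.218 and 0.245. Of 15 receptors 0 were called by limma, and 2 of the 15, both lower in KO, were under 0.05 before adjustment, a smaller share than the 19.1% of all genes. These were Fzd3, at 7.35, 7.16 and 7.24 in KO5, KO6 and KO7, against 7.75, 7.88 and 8.25 in WT1, WT2 and WT3 (-0.71, adjusted p = 0.0773), and the non-canonical receptor gene Ror1 (-0.47, adjusted p = 0.18). With the RNA quality covariate Fzd3 was at -0.50 and Ror1 at -0.11. The groups did not overlap for either gene, as for 24.3% of all probe sets.

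Of the 7 R-spondin and Lgr genes, which amplify Wnt signals, 0 were called by limma, against 0.978% of all genes. Before adjustment 0 were under 0.05, against 19.1% of all genes. Those with the lowest p were Lgr5 (-0.47, adjusted p = 0.315, and -0.10 with the RNA quality covariate) and Rspo1, at 5.64, 4.98 and 6.74 in KO5, KO6 and KO7, against 9.30, 8.18 and 5.33 in WT1, WT2 and WT3 (-1.81, adjusted p = 0.351). WT3 lay among the KO arrays for Rspo1, and the change was -2.95 without WT3, which passed the limits of a call, -0.96 without WT1, -1.41 without KO6 and -3.70 with the RNA quality covariate, which did not. Of 17 measured targets of the canonical pathway, some of which are also inhibitors or receptors in the lists above, 0 were called by limma, and 3 of the 17 (Axin2, Cd44 and Id2), all lower in KO, were under 0.05 before adjustment, a share close to the 19.1% of all genes. Axin2, the most widely used readout of that pathway, was at 6.31, 6.28 and 6.33 in KO5, KO6 and KO7, against 6.77, 6.85 and 6.71 in WT1, WT2 and WT3 (-0.47, adjusted p = 0.0786), and Cd44 was at -0.69 (adjusted p = 0.189). With the RNA quality covariate Axin2 was at -0.43 and Cd44 at -0.67. The list had a median change of -0.07, against -0.06 over all genes.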

How the data were processed

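RNA of mammary organoids from 3 KO and 3 WT mice had been hybridised to Affymetrix Mouse Genome arrays, with a separate mouse for each array. The submitters' processing notes in the labels name RMA for the deposited log2 values, whose version is not given in the sources used here, and the methods of the study name the simpleaffy package for quality control and normalization. RMA background-corrects, quantile normalizes and summarises probe sets, and no further normalization was applied. From 45101 probe sets, 64 Affymetrix controls were removed before testing and served to gauge RNA quality. Among the other 45037, a single gene symbol was annotated for 34945, more than 1 for 932 and none for 9160.

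Both groups were fitted in limma (version 3.58.1, R 4.3.3; lmFit and eBayes, no covariate) on all 6 arrays. Adjusted p values are Benjamini-Hochberg values across the whole table. The step was tested on simulated data. The small number of arrays limits the precision. In each pathway list the genes named were those called or, where there were none, the 2 of lowest p, and in the cell type lists genes among the 4 brightest. Genes outside this rule (Dkk1, the genes behind small counts and, in the lookup of like patterns, which of them had values printed) were picked after their values were seen. The members and lists were chosen with earlier results of these data known. Alternatives were other normalizations, a filter on dim probe sets, other variance priors, array weights, each array left out, a replicate block and a covariate for RNA quality. Promoters were taken from RefSeq. Figures were drawn in matplotlib 3.10.9 (Python 3.11.15).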

Additional observations from a re-analysis of the deposited data

How the results depend on the processing

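No antagonist probe set was called at the limits of the study in any of the alternatives, which were quantile and cyclic loess normalization, ribosomal protein centring, a minimum mean log2 value of 6 (which left 10 of the 15), a trend and robust prior, unmoderated variances, array weights, the RNA quality covariate and each array left out in turn. At a p under 0.05 and 1.5-fold, 0 were called on all arrays and 1 without WT1, the brighter Dkk3 probe set. Before adjustment, limma gave p under 0.05 for 3 of the 15 without WT1 (a dimmer Sfrp1 probe set and the brighter Dkk3 one lower, the dimmer Sfrp5 one higher), for 2 without KO7 (the dimmer Sfrp5 and the brighter Frzb probe set, both higher), for 1 without WT3 (the dimmer Dkk3 probe set, higher) and for 1 with loess or ribosomal protein centring (the dimmer Sfrp5 probe set, higher). The median change of the 8 genes was between -0.09 and 0.18 with an array left out, 0.14 with the covariate and 0.07 with the mean of all probe sets of each gene. Its sign thus changed with the arrays used. The covariate, which separates the groups fully, turned the sign of 5 of the 15 changes.

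The replicate numbers shared by the groups were not taken as pairs. The deviations of same-numbered arrays correlated at -0.155, 0.16 and 0.0994. KO5 correlated best with WT3, at 0.196, while KO6 and KO7 correlated best with the WT array of their own number. Such weak values, from deviations within groups of 3 arrays, cannot decide whether the arrays were paired. With the replicate number as a block, 0 antagonist probe sets were called, the median change was 0.03 and 922 of all probe sets were called. The count over all probe sets, which gives the background, was 894 on all arrays, 299 with unmoderated variances, 316 with the covariate, 1634 without WT1 and 566 without WT2, and the share of these that were higher in KO was 84.9% on all arrays and 43.4% with the covariate. At an adjusted p under 0.05 the count over all probe sets was 100 and lay between 0 and 3623 in the alternatives.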
